A study of Mus musculus with 6 samples.

Results

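Selenoproteins are proteins that carry selenocysteine, the selenium analogue of cysteine. The 8 genes described here are Selenok, Selenos, Selenot, Selenof, Selenow, Selenom, Selenop and Msrb1. They were picked by symbol from a list drawn up with values of these libraries in view, and all 8 were found among the 47561 features of each table. The values that were in view are the levels after AVP and in controls, so that contrast is given for these genes as a description, with no test. Blood neutrophils, sorted by flow cytometry from mice, were profiled by RNA sequencing in 3 control samples, labelled negative control, and in 3 samples whose donors had received AVP over 30 days. AVP is not spelled out in the labels. The sources used here do not give strain, sex, age, dose or what the controls received. Whether the samples of a group are separate animals is not stated, so spreads and p-values cover these samples only.

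Selenocysteine is inserted at a UGA codon, which elsewhere ends translation, and a hairpin in the 3' untranslated region of the same mRNA directs the insertion. Most members of the family with a known activity are redox enzymes, in which the selenocysteine sits at the active site. The family also holds small membrane proteins of the endoplasmic reticulum (ER) and a plasma protein that carries selenium between tissues. In myeloid cells Selenok is known for its part in receptor-triggered calcium flux, and Msrb1 for repairing oxidised methionines, among them those of actin.

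The UGA codons are the feature that unites these genes, and the stretches around them are shown because they separate the members into structural kinds. In the GENCODE M21 annotation of GRCm38, the assembly of the mm10 build, each member had an annotated selenocysteine codon, and every in-frame TGA before the stop was an annotated one. Up to 30 bases before the first such codon and up to 12 after it, within the coding sequence, read 5' to 3' on the coding strand as follows, with the selenocysteine codon in capitals:
Selenok: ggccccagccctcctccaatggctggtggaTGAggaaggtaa
Selenos: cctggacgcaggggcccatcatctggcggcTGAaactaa
Msrb1: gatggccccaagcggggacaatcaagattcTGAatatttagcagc
Selenot: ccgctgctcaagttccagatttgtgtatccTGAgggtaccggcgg
Selenow: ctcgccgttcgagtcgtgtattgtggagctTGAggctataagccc
Selenom: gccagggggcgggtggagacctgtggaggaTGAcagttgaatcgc
Selenof: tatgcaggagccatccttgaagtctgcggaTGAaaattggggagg
Selenop: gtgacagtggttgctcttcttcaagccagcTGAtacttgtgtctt

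Selenok and Selenos carried the codon at the very end of the protein. It was codon 92 of 94 in Selenok and codon 189 of 190 in Selenos, so both stretches run into the stop codon TAA. In Selenot (codon 49 of 195), Selenow (codon 13 of 88) and Selenom (codon 48 of 145) the codon lay in the first part of the coding sequence, and the codon 3 before it encoded cysteine (TGT in each), the arrangement of a thioredoxin-like fold. Selenof had it at codon 93 of 162 with a cysteine codon (TGC) 2 before, and Msrb1 at codon 95 of 116 with neither. Selenop was the exception in number, with 10 selenocysteine codons, the first at codon 59 of 380 and the last at codon 377.

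**Figure D1:**
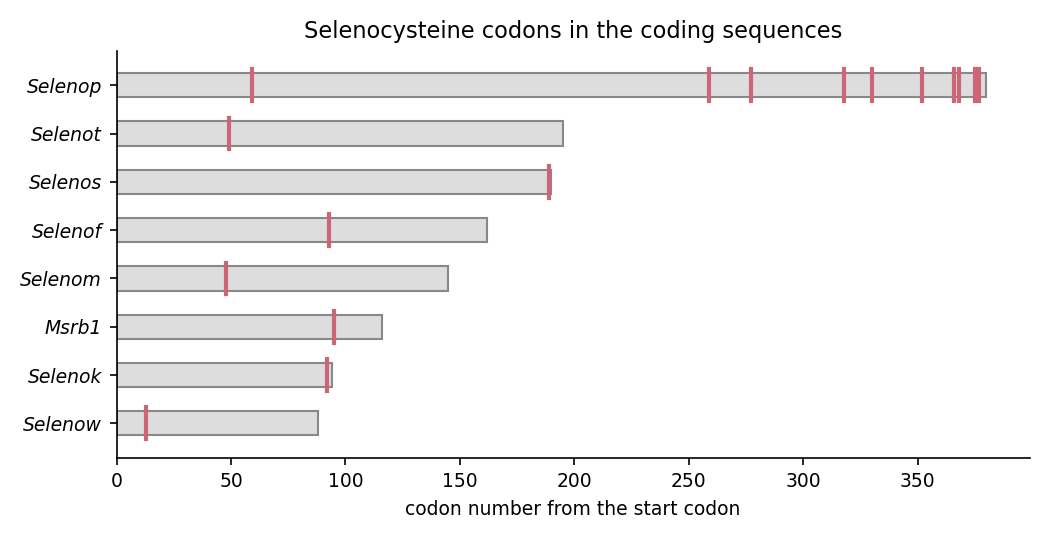
Each bar is the coding sequence of a gene in codons, drawn to scale from the start codon, and each red line is a selenocysteine codon. The line lies at the right end in Selenos and Selenok (codons 189 and 92), near the start in Selenow (codon 13), and Selenop has 10 lines.

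The place of the codon relative to the last exon junction is of interest because a UGA that is read as a stop well before that junction can send an mRNA to nonsense-mediated decay. The distance from the codon to the junction was 470 bases in Selenot, 357 in Selenop, 243 in Selenow, 135 in Selenom, 78 in Selenof, 34 in Msrb1 and 5 in Selenok. In Selenos the codon lay in exon 6 of 6, past the last junction. Selenok and Msrb1, the most abundant members in the libraries below, had short distances, as a description of 8 genes. Selenos, past the last junction, ranked 6 by mean FPKM in both groups, below Selenop and Selenow with their longer distances. A link between distance and level was not tested.

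Each table gives FPKM, a fragment count set relative to transcript length and library size, so levels can be compared between genes. The depth was about 14191000 to 16827000 fragments per library, estimated from the value that 1 fragment adds to pseudogenes. That value was taken as the most frequent low product of FPKM and length, shared by 32 to 68 pseudogenes per library. The sort label was checked with marker genes. The 10 neutrophil markers summed to 169861 to 190029 FPKM in controls and 165363 to 193813 FPKM after AVP, most of it S100a8 and S100a9. RNA of other cells was also present. The 10 red cell markers summed to 102743 to 154922 FPKM in controls and 119457 to 242643 FPKM after AVP, the highest being AVP replicate 1, and the 10 B cell markers to 5038 to 7954 and 1355 to 5079 FPKM. The 8 basophil markers reached 338 FPKM in AVP replicate 1, 31.1 FPKM in control replicate 2 and at most 0.0466 FPKM elsewhere. AVP replicate 3 stood apart, with 226 FPKM over the 12 monocyte markers (544 to 1171 FPKM in the other 5 libraries) and 154 FPKM over the 10 T cell markers (34.6 to 61.7 FPKM elsewhere), of which Cd3e, Cd4 and Cd8a were listed at 0 in all 6.

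Selenok encodes a small ER membrane protein that works with the palmitoyltransferase Zdhhc6, for example on the calcium channel that inositol trisphosphate opens, and that also joins the machinery for removing misfolded ER proteins. The gene (identifier 80795, protein-coding) lies on chromosome 14 from 29968380 to 29975074. It stood at 208, 146 and 185 FPKM in control replicates 1 to 3 and at 423, 431 and 467 FPKM in AVP replicates 1 to 3. Each AVP library exceeded each control, and the lowest of them was above the highest control by more than the whole range of either group. The means were 179.8 ± 31.3 and 440.1 ± 23.5 FPKM (SD, n = 3 each). The fitted difference, AVP minus control on the log2(FPKM + 1) scale, was 1.38 (SE 0.22), a factor of 2.61.

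Selenok was the member whose groups did not overlap after the libraries had been scaled to each other, which makes 1 of the 7 members that passed the filter of 1 FPKM in at least 3 libraries. Among all 8523 genes tested, the groups did not overlap with AVP higher in 7.49% and with AVP lower in 6.49%, together 14.0%. Nothing is read from the members' count, since the list was made with these values known. By limma with Benjamini-Hochberg adjustment, 0 of 8523 genes (0.0%) passed an adjusted p of 0.05, while an unadjusted p under 0.05 was reached by 402 genes with AVP higher (4.72%) and 320 with AVP lower (3.75%), together 8.47%. The fitted difference of Selenok stayed between 1.26 and 1.49 over the 16 other settings tried, 6 of which each left out 1 library.

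Ratios within a library do not depend on how libraries are scaled. The ratio of Selenok to Msrb1 in FPKM was 0.275, 0.267 and 0.289 in the controls and 0.597, 0.719 and 0.745 after AVP. The ratio of Selenok to Selenos was 3.26, 3.13 and 3.37 in the controls and 8.9, 24.3 and 4.79 after AVP. Both ratios were nearly constant among controls and higher in every AVP library. The ratio of Selenok to Selenof varied more among controls, at 3.34, 2.18 and 1.87, and was 6.83, 8.58 and 8.02 after AVP. A ratio without Selenok, that of Selenop to Selenof, was 0.869, 0.752 and 0.942 in the controls and 1.43, 2.08 and 1.27 after AVP. It was thus also higher in every AVP library. Such ratios reuse values known when the list was made, so they are a description. Of the summed FPKM of the 8 members, Selenok took 15.8% to 16.7% in controls and 29.6% to 33.9% after AVP, and Msrb1 took 54.8% to 60.7% and 45.4% to 49.5%. The sum includes Selenok, and the mean of Msrb1 itself was 649 FPKM in controls and 645 FPKM after AVP. In bulk RNA, more transcript per neutrophil and a different mix of cells cannot be told apart. The summed B cell markers given above overlapped between the groups, and 0 of the 10 passed by limma (an unadjusted p under 0.05 was reached by 1 with AVP higher and 1 with AVP lower). The scaled groups did not overlap in 4 of the 10, with AVP lower in Cd79b, Igkc and Pax5 and higher in Ighd. Of the 10 neutrophil markers 0 passed as well (an unadjusted p under 0.05 was reached by 3 with AVP higher and 1 with AVP lower), and the scaled groups did not overlap in Retnlg, Mmp8 and Ngp, with AVP higher, and in Mmp9, with AVP lower. Retnlg, which encodes a resistin-like protein of granulocytes and was named after its values were seen, was at 4925, 5057 and 5538 FPKM in controls, against 10512, 11049.7 and 9729 FPKM after AVP (1.10, SE 0.15, adjusted p by limma 0.0656). Beside these marker counts, the groups did not overlap in 14.0% of all genes tested, in either direction. An unadjusted p under 0.05 by limma was reached by 4.72% of all genes with AVP higher and 3.75% with AVP lower. The part of the B cell and neutrophil markers in the level of Selenok was not tested.

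The mouse genome holds processed copies of Selenok, and 8 features are named as its pseudogenes. Together they came to 2.39, 2.5 and 1.15 FPKM in the controls and to 5.13, 4.75 and 5.22 FPKM after AVP. That is 0.621% to 1.71% of the value of Selenok itself. Fragments shared between near-identical copies could be assigned to either, so the split is uncertain, and the copies were small beside the gene.

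**Figure D2:**
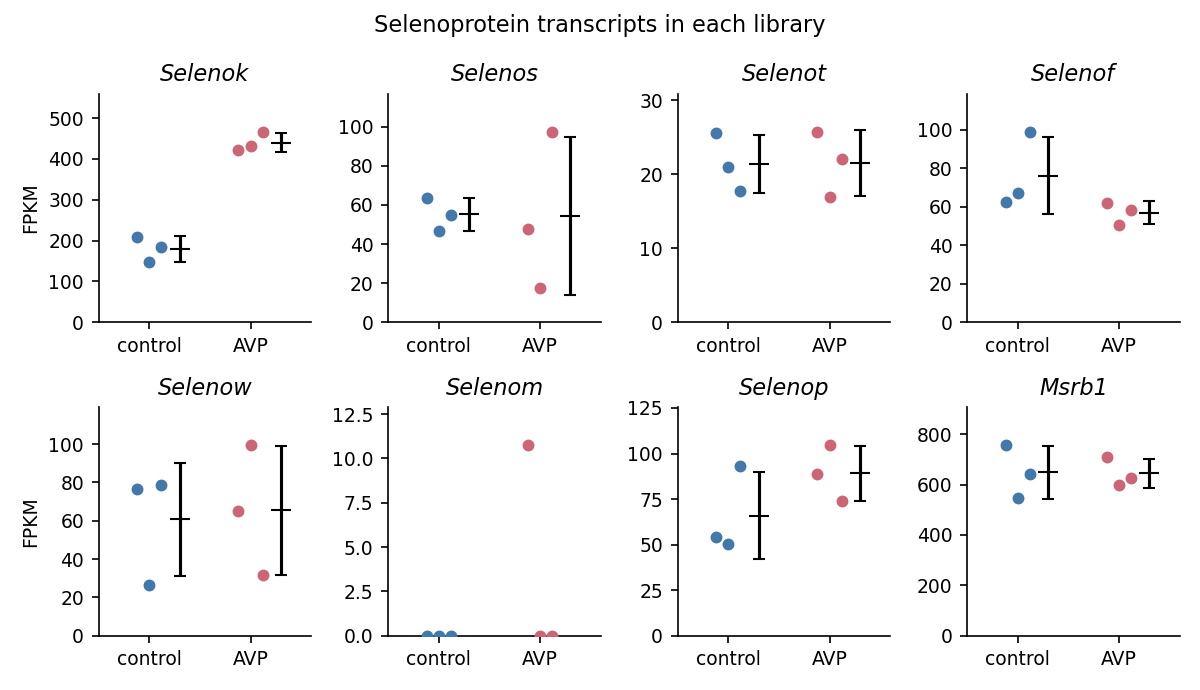
Each panel shows 1 gene, with FPKM on a linear axis from 0, 3 control libraries in blue and 3 AVP libraries in red in the order of their replicate numbers, and the mean with its SD in black (not drawn for Selenom, which was listed at 0 in 5 libraries). Selenok separates the groups (146 to 208 against 423 to 467 FPKM), and Msrb1 covers much the same range in both.

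The promoter of Selenok is shown because it is the member with the largest fitted difference. RefSeq promoters of GRCm38.p6, from 250 bases before to 50 after the transcript start, were matched for all 8 members. The bases upstream of the first annotated Selenok transcript, chr14:29968130-29968307 on the plus strand, are printed with matches to an AP-1 motif and to a cAMP response core in capitals:
Selenok promoter: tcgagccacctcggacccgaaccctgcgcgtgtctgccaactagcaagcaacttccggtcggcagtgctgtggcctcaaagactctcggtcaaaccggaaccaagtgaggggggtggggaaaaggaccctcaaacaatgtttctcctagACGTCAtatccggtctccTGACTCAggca

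The motifs were searched on both strands in the full windows. The AP-1 letters TGANTCA occurred in 1 of the 8 members, Selenok, where the match ended 77 bases before the RefSeq start, and in 7.93% of 27025 promoters. The core TGACGT also occurred in 1 of 8, again Selenok, 96 bases before the start and clear of the AP-1 match, and in 7.64% of promoters. The loose NF-kB letters GGGNNNNNCC were found in 4 of 8 members and 50.4% of promoters, and CCAAT in 4 of 8 and 37.9%. In Selenok 3 matches to the NF-kB letters lay past the printed stretch, 2 of them on opposite strands of overlapping bases. These are matches of letters, not shown binding sites.

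Patterns were compared by the root mean square difference of centred log2 values over the 6 libraries. The 4566 genes compared had a mean of at least 5 FPKM, leaving out pseudogenes and features with provisional names (Gm, Rik, LOC or rna-). The genes whose pattern lay nearest to that of Selenok were taken from these. They were Gadd45a (0.115), a stress-induced growth arrest gene, Pofut2 (0.148), a protein O-fucosyltransferase, Fosl2 (0.159), a Fos-family partner in AP-1 dimers, Il1f9 (0.168), which encodes the IL-36 gamma named in the series title, and Dennd4a (0.175). The median over all genes compared was 0.993. Gadd45a stood at 96.8, 83.6 and 95.9 FPKM in controls, against 190.3, 223 and 246 FPKM after AVP. Fosl2 stood at 16.9, 11.2 and 17.3 FPKM and at 47.9, 39.3 and 40.3 FPKM. These genes share the libraries with Selenok, and their order is a description.

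Msrb1 encodes the selenoenzyme that reduces the R form of methionine sulfoxide in the cytosol and nucleus. The gene (identifier 27361) lies on chromosome 17 from 24736593 to 24742778 and was the most abundant member in each of the 6 libraries. It stood at 757, 548 and 642 FPKM in controls, against 708, 599 and 627 FPKM after AVP. The groups overlapped almost fully, with means of 649 ± 104 and 645 ± 56.7 FPKM (SD, n = 3 each). The fitted difference was 0.08 (SE 0.21), with a range of -0.04 to 0.20 over 16 other settings. On rounded values its sign turned in 2 of the 16, not counting the fit without scaling, where the difference was -0.0. Msrb1 ranked 117 by mean FPKM among the 8523 genes tested, and Selenok 254. The nearest patterns to Msrb1 were those of Mrps18c (0.063), a mitochondrial ribosomal protein gene, Polr2a (0.073), the largest subunit of RNA polymerase II, Neurl3 (0.083), Abca7 (0.091), a lipid transporter, and Grk2 (0.094), a kinase of G protein-coupled receptors, against a median of 0.701.

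Among the other genes of methionine sulfoxide repair, Msra, which reduces the S form, was at 68.3, 64.2 and 33.9 FPKM in controls, against 49, 78 and 8.51 FPKM after AVP, so AVP replicate 3 was far below the rest. Txn1, the thioredoxin that recharges these enzymes, was at 1176 ± 61.9 and 1437 ± 96.5 FPKM (SD, n = 3; log2 difference 0.37, SE 0.17, adjusted p by limma 0.615). Txn2, the mitochondrial thioredoxin, was at 14.9 ± 8.96 and 35.5 ± 9.43 FPKM (SD, n = 3; 1.47, SE 0.57, adjusted p by limma 0.506). In both thioredoxin genes the groups did not overlap, and neither passed. Among all genes tested the groups did not overlap with AVP higher in 7.49%, and in either direction in 14.0%. The thioredoxin genes were those with the smallest p of the list, so nothing is read from their separation. Of the 8 listed genes 4 were tested, 0 passed in either direction, and their median log2 difference was 0.04 beside -0.04 over all genes tested.

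Selenos, like Selenok an ER membrane protein with a selenocysteine next to its end, tethers the ATPase that pulls misfolded proteins out of the ER. The gene (identifier 109815) lies on chromosome 7 from 66079649 to 66089405. It stood at 63.8, 46.8 and 54.9 FPKM in controls, against 47.5, 17.7 and 97.6 FPKM after AVP. The AVP libraries held both the lowest and the highest value, with a coefficient of variation of 74.3% after AVP and 15.5% in controls. The fitted difference was -0.23 (SE 0.58). Without AVP replicate 3 it was -0.79 and without AVP replicate 2 it was 0.45, so 1 library set the sign.

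The genes of ER-associated degradation, the route in which Selenok and Selenos take part, had a median near 0. Of 16 listed genes 15 were tested, 0 passed in either direction, 7 lay above 0 and 8 below, and the median log2 difference was -0.01. In 2 of the 15 the groups did not overlap, both with AVP higher, beside 14.0% of all genes tested in either direction. Derl2, of the derlin family that binds both selenoproteins, was at 9.88, 7.03 and 11.3 FPKM in controls, against 14.4, 14.3 and 13.8 FPKM after AVP (0.64, SE 0.44, adjusted p by limma 0.775). Edem1, which hands misfolded glycoproteins to the channel, was at 3.62 ± 1.15 and 7.82 ± 3.22 FPKM (SD, n = 3; 0.97, SE 0.58, adjusted p by limma 0.738). Derl1 (22.7 ± 7.61 and 21.1 ± 7.23 FPKM) and Herpud1 (35.7 ± 14.9 and 29.2 ± 5.82 FPKM; SD, n = 3) had the highest levels of the list and fitted differences of -0.01 (SE 0.46) and -0.14 (SE 0.40).

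Zdhhc6, the enzyme that Selenok assists, was listed at 0 in 4 libraries, at 0.55 FPKM in control replicate 3 and at 7.36 FPKM in AVP replicate 2, and is named here for its tie to Selenok, after its values were seen. Of the 9 listed genes of ER calcium and palmitoylation 8 were tested and 0 passed, with a median of 0.23. Orai1, the plasma membrane calcium channel, was at 31.5, 23.9 and 15.5 FPKM in controls, against 68.8, 24.4 and 41.9 FPKM after AVP, so the groups overlapped (0.92, SE 0.50). Itpr2, a receptor for inositol trisphosphate, was at 3.28 ± 1.76 and 6.28 ± 2.57 FPKM (SD, n = 3). Stim1, the ER calcium sensor, was low throughout, at 2.18 ± 0.808 and 0.587 ± 0.424 FPKM (SD, n = 3), and Atp2a2, an ER calcium pump, was at 0.851 ± 1.26 and 3.03 ± 1.56 FPKM (SD, n = 3). All 4 had adjusted p by limma between 0.66 and 0.782.

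Selenof is a soluble thiol-disulfide oxidoreductase of the ER lumen that binds the folding sensor Uggt1. The gene (identifier 93684) lies on chromosome 3 from 144570427 to 144597677. It stood at 62.3, 67.1 and 98.9 FPKM in controls, against 61.9, 50.2 and 58.2 FPKM after AVP. On this deposited scale each AVP value was below each control value, by a margin of less than 1 FPKM, and after scaling the groups overlapped (60.1 to 95.5 against 48.3 to 69.5 FPKM). Without AVP replicate 1 they did not overlap after scaling either. The fitted difference was -0.31 (SE 0.31), and -0.11 without control replicate 3. Uggt1 was at 3.54, 2.32 and 2.29 FPKM in controls, against 3.64, 3.15 and 3.7 FPKM after AVP, and was named after its values were seen.

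Selenot, an ER membrane oxidoreductase with a thioredoxin-like fold, is encoded on chromosome 3 from 58576636 to 58593544 (identifier 69227). It stood at 25.5, 21 and 17.7 FPKM in controls, against 25.7, 16.9 and 22 FPKM after AVP. Its groups covered the same range, with a fitted difference of 0.09 (SE 0.40) whose sign turned in 2 of 16 other settings. Selenom, a thioredoxin-like protein of the ER lumen, is encoded on chromosome 11 from 3514684 to 3517351 (identifier 114679). Only AVP replicate 1 had a value above 0, 10.7 FPKM, the remaining 5 being listed at 0, and it was the member that did not pass the filter. With a transcript of 707 bases the single value corresponds to about 110 fragments, which are not independent molecules after amplification.

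Chaperones and stress genes of the ER, the compartment of 5 of the 8 members, were examined as a list of 22. Of 18 tested, 0 passed, 12 lay above 0 and 6 below, and the median was 0.28 beside -0.04 over all genes tested. Hspa5, the main ER chaperone BiP, was at 59.9, 90.1 and 159 FPKM in controls, against 237, 169 and 246 FPKM after AVP (1.25, SE 0.39, adjusted p by limma 0.37). Canx, the membrane chaperone calnexin, was at 29.2, 39.8 and 31.1 FPKM in controls, against 6.63, 21.5 and 2.69 FPKM after AVP (-1.91, SE 0.65, adjusted p by limma 0.426). Hspa5 and Canx thus stood on opposite sides, each with groups that did not overlap. Over the list the groups did not overlap with AVP higher in 2 genes and lower in 1. The share over all genes tested was 14.0% in either direction. Besides Hspa5, the gene with AVP higher was Ppp1r15a (1.55, SE 0.57, adjusted p by limma 0.48), named after its values were seen. Atf4, a transcription factor of the stress response, was at 115 ± 23.5 and 119.5 ± 28.9 FPKM (SD, n = 3).

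Selenow, a small cytosolic protein with a thioredoxin-like fold, is encoded on chromosome 7 from 15917208 to 15922371 (identifier 20364). It stood at 76.7, 26.4 and 78.9 FPKM in controls, against 64.9, 99.4 and 31.9 FPKM after AVP. Control replicate 2 and AVP replicate 3 were low, and the spread was large in both groups (coefficients of variation 48.9% and 51.6%). The fitted difference was 0.20 (SE 0.55), and it lay between -0.29 without control replicate 2 and 0.65 without AVP replicate 3.

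Selenop is the secreted selenium carrier of plasma, made mainly by the liver and also by macrophages. The gene (identifier 20363) lies on chromosome 15 from 3270767 to 3280510. It stood at 54.2, 50.5 and 93.2 FPKM in controls, against 88.6, 104.6 and 73.9 FPKM after AVP. Control replicate 3 was within the AVP range and above AVP replicates 1 and 3, and the means were 65.9 ± 23.7 and 89 ± 15.4 FPKM (SD, n = 3 each). The fitted difference was 0.55 (SE 0.33), the next after Selenok among the members, and 0.82 without control replicate 3. After scaling, its groups did not overlap without control replicate 3 or without AVP replicate 3. In the latter case they still overlapped on the deposited scale, with control replicate 3 at 93.2 FPKM and AVP replicate 1 at 88.6 FPKM.

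The monocyte markers, as a list of a related phagocyte, summed to 544, 899 and 1171 FPKM in control replicates 1 to 3 and to 869, 1119 and 226 FPKM in AVP replicates 1 to 3. The order of the libraries by this sum matched that by Selenop in part. Control replicate 3 and AVP replicate 2 were highest in their groups for both, and AVP replicate 3 was lowest in its group for both. Control replicates 1 and 2 stood in the opposite order, and AVP replicate 3, with the lowest sum of all 6, had more Selenop than either of them. Of the 12 markers 11 were tested, 0 passed, none was at 0 in all 6 libraries, and their part in the level of Selenop was not tested. Selenop overlaps the RefSeq gene Ccdc152, which lies on the opposite strand and was at 1.4 FPKM in control replicate 2, at 0.684 FPKM in AVP replicate 2 and at most 0.0219 FPKM in the other libraries. Whether counting used the strand is not stated, so fragments of the shared stretch cannot be told apart.

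The order of the members by level was clear at the top and at the bottom in both groups. Among controls Msrb1 came first and Selenok next, each above the gene that followed in 3 of 3 libraries and with ranges that did not overlap. Selenof (76.1 FPKM on average), Selenop (65.9), Selenow (60.6) and Selenos (55.2) followed, and each of these neighbours overlapped the next. Selenot (21.4 FPKM) lay below Selenos with no overlap, and Selenom was listed at 0. After AVP the order was Msrb1 (645 FPKM), Selenok (440.1), Selenop (89), Selenow (65.4), Selenof (56.8), Selenos (54.3), Selenot (21.5) and Selenom. From Selenop to Selenot each neighbour overlapped the next, since Selenos reached down to 17.7 FPKM.

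**Figure D3:**
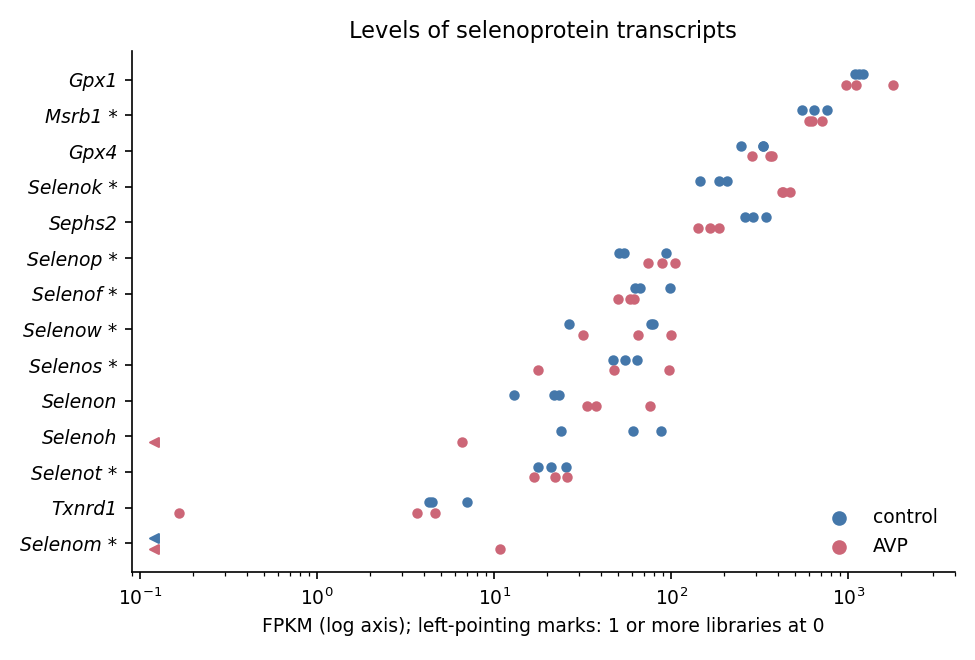
Each point is the FPKM of 1 library on a log axis, in blue for control and red for AVP, for the selenoprotein genes with a mean of at least 1 FPKM; asterisks mark the 8 described genes and left-pointing marks stand for libraries at 0. Gpx1 and Msrb1 lead, and the colours separate in Selenok, Selenon, Sephs2, Selenoh and, on this deposited scale, Selenof.

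The other 16 selenoprotein genes place the 8 within their family, which has 24 genes with an annotated selenocysteine codon. Of these 16, 6 were tested, 0 passed in either direction, 3 lay above 0 and 3 below, and the median was -0.29. The groups did not overlap in 3 of the 6, 1 with AVP higher and 2 with AVP lower, beside 14.0% of all genes tested in either direction. Nothing is read from this count, since the list was made with earlier results known. Gpx1, the glutathione peroxidase of the cytosol, was the most abundant of all, at 1158 ± 60.2 and 1291 ± 435 FPKM (SD, n = 3), and Gpx4, which protects membrane lipids from peroxidation, was at 303 ± 47.5 and 341 ± 46 FPKM (SD, n = 3). Their fitted differences were 0.19 (SE 0.23) and 0.26 (SE 0.24).

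Selenoh, a nuclear protein with a thioredoxin-like fold, was at 87.1, 23.9 and 61.1 FPKM in controls, against 0, 6.61 and 0 FPKM after AVP. All AVP libraries lay below all controls, and the fitted difference was -4.68 (SE 0.90, adjusted p by limma 0.159, and 0.127 to 0.733 over 16 other settings). With AVP replicates 1 and 3 listed at 0 its size depended on the setting, from -6.93 to -3.05. Sephs2, the selenophosphate synthetase that makes the selenium donor and is itself a selenoprotein, was at 343, 291 and 262 FPKM in controls, against 142, 186 and 166 FPKM after AVP. Its groups did not overlap either, with a difference of -0.77 (SE 0.21, adjusted p by limma 0.318, and 0.303 to 0.733 over the other settings). Selenon, an ER membrane protein tied to calcium pumps, was at 23.3, 21.7 and 12.9 FPKM in controls, against 37.4, 33.7 and 76.3 FPKM after AVP (1.33, SE 0.44, adjusted p by limma 0.42, and 0.357 to 0.733 over the other settings). These 3 genes had larger fitted differences than each member except Selenok, in both directions, and none passed.

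**Figure D4:**
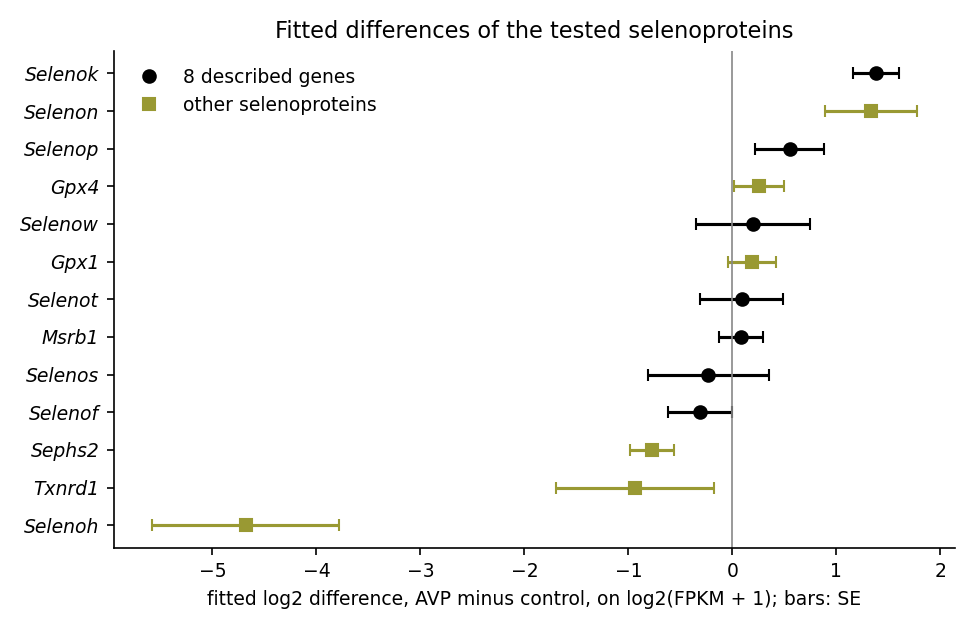
Fitted log2 difference, AVP minus control, with its SE, for the 7 tested genes of the 8 (black circles) and the 6 tested other selenoproteins (olive squares), ordered by size. Selenok (1.38) and Selenon (1.33) lie at the top, Selenoh (-4.68) at the bottom, and 5 of the 7 black circles lie within 0.31 of 0.

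The factors that make and insert selenocysteine were mostly low. Of 13 listed 8 were tested, 0 passed, 2 lay above 0 and 6 below, and the median was -0.17. Secisbp2, which binds the hairpin in selenoprotein mRNAs, was at 5.03, 2.42 and 5.01 FPKM in controls, against 5.77, 8.08 and 8.71 FPKM after AVP (0.83, SE 0.56, adjusted p by limma 0.772). Rpl30, a ribosomal protein that binds the same hairpin, was at 557 ± 64.7 and 411 ± 60.5 FPKM (-0.36, SE 0.20), and Eif4a3, which limits access to the hairpin of some selenoproteins, at 29.3 ± 11 and 47.7 ± 9.3 FPKM (SD, n = 3; 0.81, SE 0.37). The groups did not overlap in Secisbp2 and Rpl30. In Eif4a3 they overlapped on the deposited scale, where control replicate 2 was at 41.9 FPKM and AVP replicate 1 at 38.4 FPKM, and did not after scaling. The adjusted p by limma of these 3 genes lay between 0.615 and 0.772. After scaling the groups thus did not overlap in 3 of the 8 tested, 2 with AVP higher and 1 with AVP lower. The share over all genes tested was 14.0% in either direction. Nothing is read from this count, since the list was made with earlier results known. Sars, the seryl-tRNA synthetase, was at 8.33 ± 7.94 and 5.29 ± 2.31 FPKM, Ncl at 10.9 ± 3.46 and 5.59 ± 4.08 FPKM, and Elavl1 at 10.3 ± 6.48 and 7.75 ± 1.71 FPKM (SD, n = 3), with groups that overlapped.

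The list of selenium and cystine uptake had 5 genes, of which 3 were tested and 0 passed. Slc7a11 and Slc3a2 encode the subunits of the cystine transporter, whose activity also aids selenium uptake. Slc3a2 was at 3.32, 6.98 and 3.3 FPKM in controls, against 26.3, 27.2 and 14.8 FPKM after AVP (2.19, SE 0.53, adjusted p by limma 0.283). Slc7a11 was at 10.8, 7.66 and 16.6 FPKM in controls, against 23.6, 43.8 and 27.7 FPKM after AVP (1.46, SE 0.44, adjusted p by limma 0.351). In both transporter genes every AVP library was above every control, also after scaling. Among all 8523 genes tested this was so in 7.49%. Both were named for the smallest p of their list, so nothing is read from their separation. Lrp8, a receptor for Selenop that was named after its values were seen, was at 0.151, 1.54 and 1.09 FPKM in controls, against 0, 2.49 and 0.157 FPKM after AVP.

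**Figure D5:**
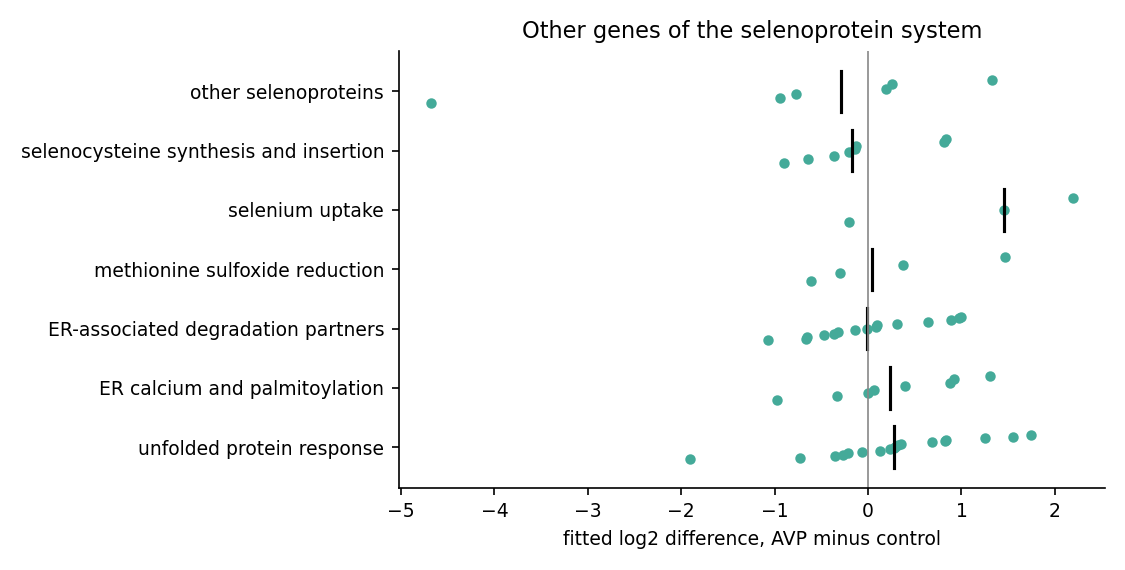
Each point is the fitted log2 difference, AVP minus control, of 1 tested gene, by list, and the black line is the median of the list; the height of a point within its row has no meaning. Medians run from -0.29 (other selenoproteins) to 1.46 (selenium uptake, 3 genes), and 0 of the genes passed the adjusted threshold.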

How the data were processed

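RNA of 3 control and 3 AVP samples of sorted mouse blood neutrophils was sequenced. Per the submitters' processing notes the build was mm10 and the tools named include HISAT2 2.1 and featureCounts 1.6.4. The authors deposited 1 table per sample, and its values were taken as FPKM, a unit inferred from the values. Deposited counts were not used here, so no count test was run. Depth was estimated from the value of 1 fragment in pseudogenes and limits precision at low FPKM.

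Scaling between libraries used trimmed means of log ratios, with factors of 0.8906 to 1.039. The 8523 genes that reached 1 FPKM in 3 or more libraries were fitted as log2(FPKM + 1) with limma 3.58.1 (R 4.3.3) with an intensity trend, and p-values were adjusted by Benjamini-Hochberg over all of them, at a threshold of 0.05. Differences on this scale understate the change of low genes.

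The 8 genes, the lists and the markers were chosen with earlier results of these data known, so the 8 genes carry no p. Named besides them were listed selenoproteins and selenocysteine factors with a mean of at least 5 FPKM. From each other list the 2 tested genes with the smallest p and the 2 with the highest mean were named, and for Selenok and Msrb1 the 5 nearest patterns. Marker lists not described in the text had these summed ranges in controls and after AVP: NK cell markers 3.59 to 4.69 and 2.86 to 47.4 FPKM, platelet markers 107 to 205 and 84.7 to 214 FPKM, and eosinophil markers 46.8 to 115 and 16.6 to 83.9 FPKM, with Epx, Prg2 and Ear1 at 0 throughout. Alternatives were other pseudocounts, filters, scalings, thresholds, a replicate block and leaving out each library.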

Additional observations from a re-analysis of the deposited data

How the results depend on the processing

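The number of genes higher after AVP, 0 in the values reported, was 11 with a filter of 10 FPKM, 3 with a pseudocount of 5, 1 without the intensity trend and 12 at an adjusted p under 0.1. Leaving out 1 library at a time gave 0 to 4 genes higher, 4 of them without control replicate 3, and 0 to 0 genes lower. The number of genes lower was 1 at an adjusted p under 0.1. The cause of these differences was not tested. Fitted with a replicate block, 0 genes were higher and 0 lower (357 and 313 at an unadjusted p under 0.05). Whether equal replicate numbers pair the samples is not stated. Deviations from the group means of same-numbered samples had correlations of 0.02, -0.013 and -0.042 over 8523 genes. Differently numbered samples had correlations of -0.036 to 0.051. No shared effect of the number was thus seen, which cannot exclude pairing. Without scaling, the median difference over all genes was -0.11 in place of -0.04, and an unadjusted p under 0.05 was reached by 346 genes with AVP higher and 376 with AVP lower. On rounded values, the sign of the fitted difference turned in 1 of 16 alternatives for Selenos and in 2 of 16 each for Selenot, Selenow and Msrb1. The value of Msrb1 without scaling, -0.0, was not counted as a turn. The sign stayed the same in all 16 for Selenok, Selenof and Selenop. The number of members whose groups did not overlap with AVP higher was 1, and 2 without control replicate 3 or without AVP replicate 3 (Selenop added). With AVP lower it was 0, and 1 (Selenof) without scaling or without AVP replicate 1. With 3 libraries a group, differences of the size of the SEs given cannot be resolved.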

Other observations

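Several genes of the selenoprotein system stood above 0 in single libraries and were listed at 0 in others. Pstk, the kinase that primes the selenocysteine tRNA, had 3.2 FPKM in AVP replicate 1, the remaining 5 libraries being listed at 0. Sephs1 was at 10.8 FPKM in the same library, at 2.97 FPKM in control replicate 1, at 0.679 FPKM in AVP replicate 2 and at 0 elsewhere. Selenoo, a mitochondrial selenoprotein, was at 5.03 FPKM in control replicate 2 alone, and Txnrd2, the mitochondrial thioredoxin reductase, at 2.88 FPKM in control replicate 2 and at 0.908 FPKM in AVP replicate 2. Msrb2, the mitochondrial relative of Msrb1, was at 0, 10.2 and 10.4 FPKM in controls and listed at 0 in all 3 AVP libraries. Sepsecs, the last enzyme of selenocysteine synthesis, was listed at 0 in all 6, in libraries where Msrb1 stood at 548 FPKM or more.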
